A study of Homo sapiens with 2 samples.

Results

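The genes described here encode the proteins of the cytosolic ribosome. They were chosen by symbol: RPL or RPS followed by digits with an optional A, L or X ending, together with RPLP0, RPLP1, RPLP2 and RPSA, with pseudogenes and RPS6K kinases left out. The rule gave 81 genes of the 59125 rows in the count files. Of these, 77 encode the ribosome's standard set of proteins and are called core genes (46 of the large 60S subunit and 31 of the small 40S subunit), and 4 are paralogues (RPL3L, RPL10L, RPL39L and RPS27L), each of which resembles 1 core gene. All 81 identifiers were found in the GENCODE 44 annotation of GRCh38.

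Both libraries were labelled as H1944, a long-established cell line from a human lung adenocarcinoma, and the study compared cells with a control hairpin RNA (shCON) with cells whose hairpin RNA (shUSP12) targets USP12, a deubiquitinase gene. Each group held 1 RNA-seq library, so there was no replicate error, no test between groups and no p-value. The methods list more than 1 hairpin against USP12, and the labels do not say which of them this library carried. No dose, time or further treatment was labelled for either group.

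Counts summed to 18249112 in the shCON library and 17475359 in the shUSP12 library. USP12 had 711 counts in shCON and 219 in shUSP12, a log2 ratio of -1.76 (95% counting interval -1.99 to -1.55). The libraries also differed in markers that define the tissue. Among 5 epithelial markers, KRT8 had 85596 and 62180 counts in shCON and shUSP12, KRT18 24132 and 18096, CDH1 1026 and 2496, EPCAM 115 and 1566, and KRT19 32 and 4452. Of 3 lung markers, NKX2-1 had 0 counts in shCON and 312 in shUSP12, NAPSA 9 and 12, and SFTPB 0 in both. Immune markers (PTPRC, CD3E and CD68) had 0 to 2 counts, the endothelial markers PECAM1 and CDH5 had 3 to 10, and the stromal markers PDGFRB, DCN and LUM had 25, 481 and 788 in shCON and 11, 597 and 1103 in shUSP12. Rows at 3 counts or fewer in shCON but 50 or more in shUSP12 numbered 119, and 1 row showed the opposite. The ribosomal protein genes included 0 of these rows. The libraries therefore differed in more than USP12. With KRT19 and EPCAM this low and NKX2-1 at 0, it is in doubt that the library labelled shCON holds the same cells as the other, so each ratio below compares these libraries and may not measure the effect of the hairpin. With 1 library per group, hairpin, culture and library preparation cannot be told apart, and neither can fewer cells of a kind and less RNA per cell.

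Most ribosomal proteins are made in equal numbers for assembly with ribosomal RNA, largely in the nucleolus, and their mRNAs are among the most abundant in dividing cells. Most of these mRNAs start with a cytidine followed by an uninterrupted run of pyrimidines, the 5′ terminal oligopyrimidine (TOP) tract, through which mTOR signalling and the RNA-binding protein LARP1 control their translation. Single genes usually supply each protein, a large number of processed pseudogenes were copied from them, and a few functional paralogues are used mainly in muscle, testis or stressed cells.

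The starts of some core genes and paralogues are shown because they hold, or lack, a feature that was more frequent among core genes than among other genes. Each window runs from 20 bases before the RefSeq start to 10 bases from it, 5′ to 3′ on the gene's strand (sequences from RefSeq, GRCh38.p14). The capitals mark a run of pyrimidines counted from the first C that lies within 5 bases of the start and is followed by at least 4 bases that are each C or T. Windows in lower case hold no such run. The first 4 belong to the core genes RPL13A, RPL11, RPS23 and RPS27, at chr19:49487588-49487617 (+), chr1:23691786-23691815 (+), chr5:82278345-82278374 (-) and chr1:153990742-153990771 (+). RPS26 and RPS4X are core genes without a run, at chr12:56041898-56041927 (+) and chrX:72277239-72277268 (-). RPL10 and its paralogue RPL10L follow, at chrX:154398357-154398386 (+) and chr14:46651772-46651801 (-), then RPS27L, the paralogue of RPS27, at chr15:63157468-63157497 (-). All span the upstream flank and the first bases of the first exon.
RPL13A: ccctgcgacaaaacctCCTCCTTTTCCaag
RPL11: tcggccggaagctccgCTTTCTCTTCCTgc
RPS23: ctccttcctgcggtgCTTCTCTCTTTCgct
RPS27: gcaggatttccgctttcgCTCCTTTCCggc
RPS26: gctgggagacacataacctcgattttcttc
RPS4X: cgcgcgcagtctccagccccaatttctacg
RPL10: atgcgcaggcggaggagcgCCTCTTTCCCT
RPL10L: gcgcgcaggcgtagttaagagagcgcattt
RPS27L: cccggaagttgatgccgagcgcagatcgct

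A start within 50 bases of the GENCODE start was found for 62 of the 81 genes (60 core genes and 2 paralogues). On the gene's strand, 46 of the 60 core genes (76.7%) had a C followed by at least 4 pyrimidines exactly at the annotated start, against 4.56% of 16785 genes with such a window and 9.78% of the 1595 expressed at 100 CPM or more (counts per 1000000 scaled counts, the mean of both libraries). That C could lie inside a longer run, as in RPL13A, whose marked run begins 4 bases before the start. The match therefore does not mean that the run begins at the start. With any run counted whose first C lay within 5 bases of the start, 53 core genes (88.3%) held one, against 21.9% and 25.4%. Neither RPL10L nor RPS27L held one. Mitochondrial ribosomal protein genes had a C with at least 4 pyrimidines at the start in 5 of 70 windows (7.14%) and ribosome assembly factors in 7.81%. The 53 core genes with a tract had a median log2 ratio of -0.20, and the 7 without one a median of -0.34, with RPS26 lowest at -0.53 and RPL9 highest at 0.19. A match describes the letters at an annotated start and not the start used in these cells.

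The core genes took up a slightly smaller part of the shUSP12 library. Together, the ribosomal protein genes held 5.41% of all counts in shCON (exact 95% interval 5.40 to 5.42) and 4.995% in shUSP12 (4.98 to 5.01). Their summed level was 56597 CPM in shCON and 47709 CPM in shUSP12 after TMM scaling, which adjusts library size for composition, a log2 ratio of -0.25 (-0.251 to -0.242). Intervals here cover counting error only. The balance between the subunits barely moved: 60S genes made up 62.5% of core counts in shCON (62.4 to 62.6) and 63.0% in shUSP12 (62.9 to 63.1). Among the 100 rows with the highest counts, 18 were ribosomal protein genes in shCON and 17 in shUSP12, and none stood among the top 10 in either.

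Gene by gene, most ribosomal protein genes were lower in shUSP12 by a small amount. Of the 81 genes, 80 had a mean of at least 1 CPM. RPL3L, with 4 counts in shCON and 6 in shUSP12, did not. For the 80 genes the median log2 ratio was -0.20 (interquartile range -0.31 to -0.10), with 67 below 0 and 13 above. Ratios below 0 were found for 51.1% of the 14612 rows at 1 CPM or more and for 69.1% of the 2114 rows at 100 CPM or more. The counting interval lay below 0 for 61 genes, against backgrounds of 29.1% and 57.1% at these levels. It lay above 0 for 7 genes, against backgrounds of 27.1% and 22.7%, and included 0 for 12. Scaled by total counts alone, the split was 41 lower to 17 higher. The backgrounds were then 18.6% lower and 39.8% higher at 1 CPM or more, and 36.7% and 41.6% at 100 CPM or more. The median was -0.06 under this scaling, while the median of all rows moved from -0.01 to 0.12. Thus, 14 genes with small TMM ratios below 0, among them RPL23, had ratios above 0 under total counts.

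No ribosomal protein gene was 2-fold higher in shUSP12 (background 6.48% of rows at 1 CPM or more), and 1 was 2-fold lower, the paralogue RPL10L (background 3.01%). Among rows at 100 CPM or more, these backgrounds were 0.899% and 0.993%. At 1.5-fold, 3 genes were lower (RPL10L, RPL13A and RPS10; backgrounds 9.11% and 5.91%) and 0 were higher (11.9% and 2.7%). The core genes spread less than other highly expressed rows. The 68 core genes at 100 CPM or more had a standard deviation of 0.18 on the log2 scale, and the 2045 other rows at that level one of 0.45. These other rows include a ratio of 9.54, and the interquartile ranges were -0.31 to -0.12 and -0.28 to 0.06. A small spread was not particular to the core genes. At 1 CPM or more, the standard deviation was 0.18 for other TOP mRNAs and 0.24 for ribosome assembly factors. It was 0.40 for snoRNA host transcripts and 0.41 for mitochondrial ribosomal proteins. The mitochondrial list includes a ratio of 3.33, and its interquartile range was -0.05 to 0.18, against -0.63 to -0.01 for the snoRNA hosts. Of these 68 genes, 58 had an interval below 0 and 6 above it, and their median was -0.20, against -0.11 for the other rows. With only rows of at least 400 CPM, a limit chosen after the values were seen, this distance in the medians disappeared. The 51 core genes had a median of -0.23 and the 323 other rows a median of -0.23. At this level 49 of the 51 core genes and 244 of the 323 other rows (75.5%) had an interval below 0. Their spread remained apart, with interquartile ranges of -0.33 to -0.16 and -0.43 to -0.05.

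**Figure D1:**
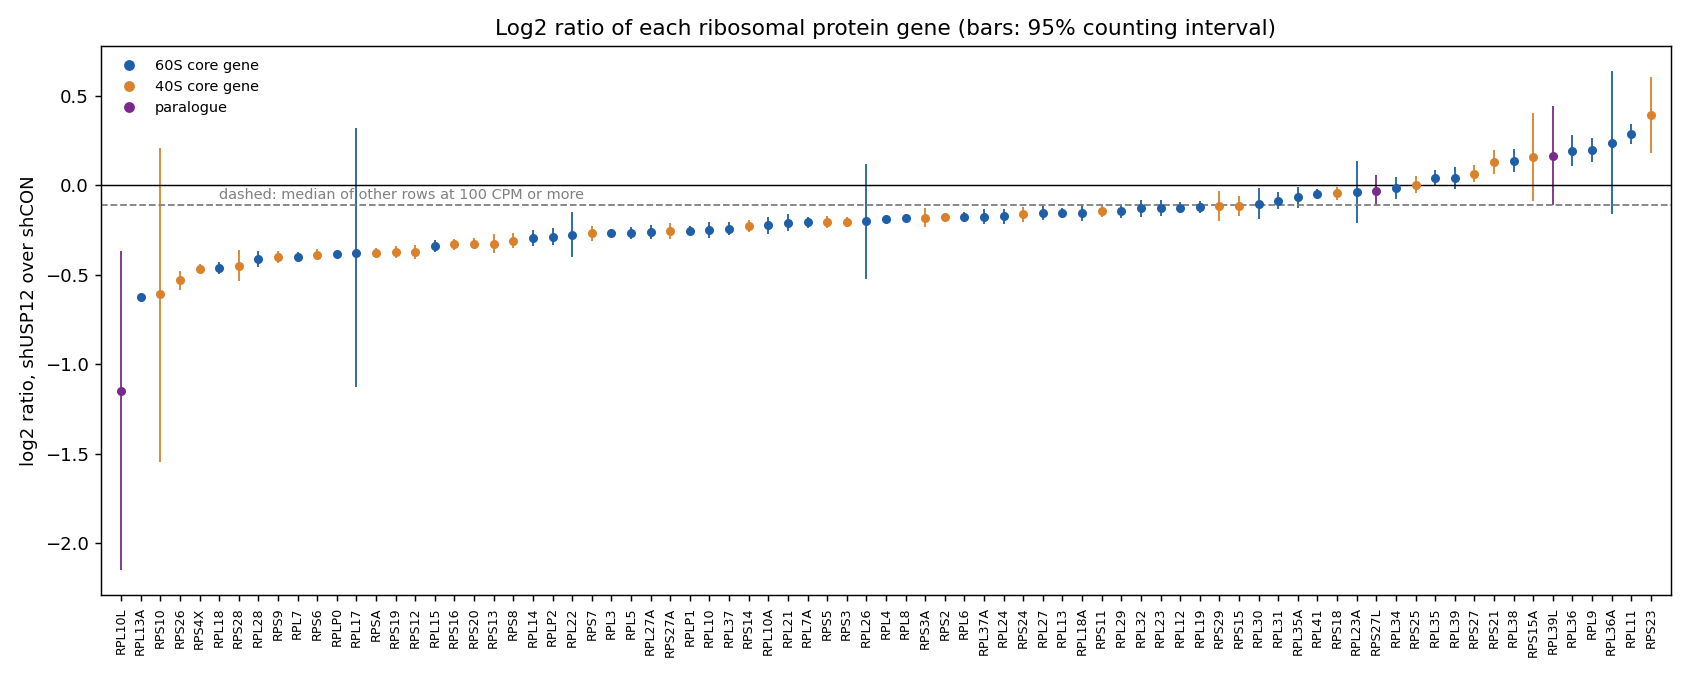
Log2 ratio of shUSP12 over shCON (vertical axis) for 79 of the 80 ribosomal protein genes with a mean of at least 1 CPM, ordered by ratio, with bars for the 95% counting interval and 1 library per group. Points are coloured by subunit or as paralogues, 66 of those drawn lie below 0, and the dashed line is the median of other rows at 100 CPM or more (-0.11).

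Large-subunit genes covered the range from RPL13A to RPL11. The median log2 ratio of the 46 core 60S genes was -0.18, with 35 intervals below 0 and 4 above. RPL13A, at chr19:49487510-49493057 (+), encodes a 60S protein that also takes part in translational silencing after interferon gamma. It had 35474 counts in shCON and 24169 in shUSP12. Its log2 ratio of -0.62 (-0.65 to -0.60) was the lowest of the core genes. RPL18, a further 60S protein, had 14471 and 11021 counts (-0.46, -0.50 to -0.43).

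The stalk proteins recruit elongation factors to the ribosome. RPLP0, the stalk's base, had 60882 counts in shCON and 48876 in shUSP12, the highest count of any core gene, and a log2 ratio of -0.39 (-0.40 to -0.37). RPLP1 had 26804 and 23577 (-0.26), and RPLP2 7683 and 6608 (-0.29). All 3 stalk genes were thus lower in shUSP12, and the interval of RPLP0 lay below those of RPLP1 (-0.28 to -0.23) and RPLP2 (-0.34 to -0.24).

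RPL5, RPL11 and RPL23 bind MDM2 and can stabilise p53 when they are free of the ribosome, and RPL5 and RPL11 enter the ribosome as 1 particle with 5S rRNA. These genes did not move together. RPL11, at chr1:23691742-23696835 (+), had 4864 counts in shCON and 6221 in shUSP12, a log2 ratio of 0.28 (0.23 to 0.34). Its partner RPL5 had 14681 and 12811 counts (-0.27, -0.30 to -0.23). RPL23 had 7614 and 7317, with a ratio of -0.13 (-0.17 to -0.08) that became 0.0051 under total-count scaling. RPL11 was thus higher in shUSP12 and RPL5 lower, with intervals that did not overlap, and both directions were kept under each scaling tried. Just 3.07% of the coding sequence of RPL11 was shared with another annotated gene, measured in 50-base words, and its 3 named pseudogene rows were at 0 in both libraries.

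RPL9 and RPL36, which encode 60S proteins, completed the upper end with RPL36A, whose 97 and 120 counts gave an interval that included 0. RPL36 had 1884 and 2261 counts (0.19, 0.10 to 0.28). RPL9 had 3389 and 4071 (0.19, 0.13 to 0.26), but 90.6% of its coding words were also present in other annotated genes. Adding its 17 named pseudogene rows, which held 5154 counts in shCON and 4225 in shUSP12, turned the ratio of RPL9 to -0.11 (-0.16 to -0.07). The direction for RPL9 therefore depended on whether these rows were counted with it. Whether their reads came from RPL9 was not tested.

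Small-subunit genes were a little lower still. The 31 core 40S genes had a median log2 ratio of -0.26, with 25 intervals below 0 and 3 above. RPS26, at chr12:56041351-56044697 (+), contacts mRNA at the exit side of the small subunit and is mutated in some cases of Diamond-Blackfan anaemia. It had 7132 counts in shCON and 5176 in shUSP12, a ratio of -0.53 (-0.58 to -0.48), with 100% of its coding words shared with another annotated gene. RPS4X, an X-linked gene, had 27452 and 20855 counts (-0.47, -0.49 to -0.44). RPS6, the substrate of S6 kinases that is commonly used as a readout of mTOR signalling, had 20133 and 16139 counts (-0.39). RPS19, the gene most often mutated in Diamond-Blackfan anaemia, had 17209 and 13936 (-0.37). RPSA, which also serves as a laminin receptor, had 25627 and 20696 (-0.38), and RPS27A, made as a fusion with ubiquitin, had 8207 and 7210 (-0.26). All 6 genes had intervals below 0 with every scaling tried, total counts included.

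RPS23, a protein of the decoding centre at chr5:82273320-82278396 (-), had 316 counts in shCON and 435 in shUSP12. Its log2 ratio of 0.39 (0.18 to 0.61) was the highest of the core genes, on far fewer counts than most. RPS10, which had the second lowest ratio (-0.61), rested on 30 and 20 counts, and its interval of -1.55 to 0.21 included 0. RPS28 was named after its values were seen, because a pseudogene row moved against it. It had 2490 and 1913 counts (-0.45, -0.54 to -0.36). With its 3 named pseudogene rows, which held 15 counts in shCON and 402 in shUSP12, the ratio was -0.18 (-0.27 to -0.10).

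Levels were compared per kilobase of coding sequence. This divisor leaves out the untranslated parts of a transcript, whose reads are also counted, so levels and their order depend on it. The median level of the core genes was 1273 CPM per kb in shCON and 1074 in shUSP12. The highest was RPL41, at 12701 and 12273 CPM per kb. Its coding sequence has only 78 bases, in an annotated transcript of 676, and all its coding words are shared. Both this level and its rank are therefore uncertain. RPLP1 followed with 4457 and 3735 CPM per kb, and RPLP0, RPL8 and RPL13A had means of 3231, 2897 and 2742. The 30 core genes with fewer than 40% of their coding words shared ranged from means of 348 (RPL30) to 4096 CPM per kb (RPLP1).

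Several core genes were listed at very low levels. RPS10 had a mean of 2.83 CPM per kb, RPL17 3.54, RPL36A 18.9 and RPL26 20.8, although each encodes a standard ribosomal protein. These 4 were among the 7 core genes with at least 40% of their coding words inside an annotated readthrough gene, a transcript that joins 2 neighbouring genes. RPS15A and RPL22, also among them, had 252 and 1098 counts in shCON, and the range over all 7 was 30 to 1098. Among the remaining 70 core genes, RPS23 and RPL23A, with 316 and 532 counts in shCON, were the only ones below the 1884 of RPL36. The rows of the readthrough genes RPL17-C18orf32, RPS10-NUDT3 and RPL36A-HNRNPH2 were listed at 0 in both libraries. The 40 core genes with 40% or more shared words but less than 40% in a readthrough gene, RPS23 and RPL23A among them, ranged from 42.0 to 12701 CPM per kb in shCON with a median of 1343. The 30 with less sharing ranged from 340 to 4457 with a median of 1401. Across the 77 core genes, Pearson's r between the percentage of shared words and the log2 level was -0.34 and Spearman's coefficient -0.22. The part of read assignment in these low levels was not tested. RPL23A, RPL22, RPS15A and the readthrough rows were named after their values were seen.

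**Figure D2:**
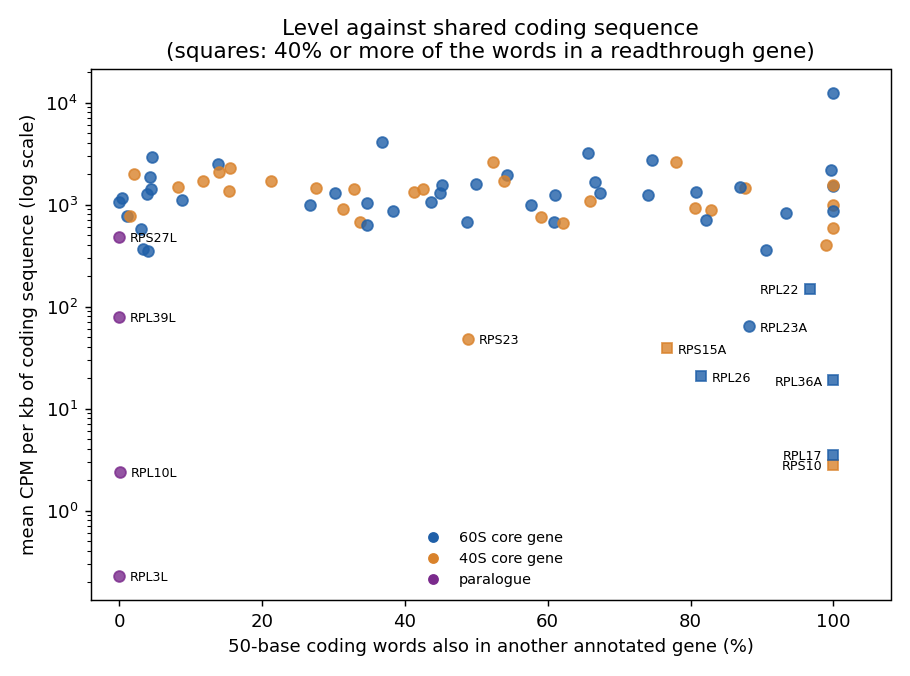
Mean CPM per kb of coding sequence (log axis) against the percentage of 50-base coding words also found in another annotated gene, for 80 of the 81 ribosomal protein genes. Squares mark 6 of the 7 core genes with 40% or more of their words in a readthrough gene, which lie between 2.83 and 149 CPM per kb, below all other core genes except RPS23 and RPL23A.

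The median ratio differed little between core genes with less and with more shared sequence. The 30 core genes with fewer than 40% shared words had a median log2 ratio of -0.21, with 25 intervals below 0 and 4 above, and the 47 others a median of -0.19. The 1132 rows of pseudogenes named after these genes were mostly empty, with 867 at 0 in both libraries, and summed to 15448 counts in shCON and 14521 in shUSP12.

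**Figure D3:**
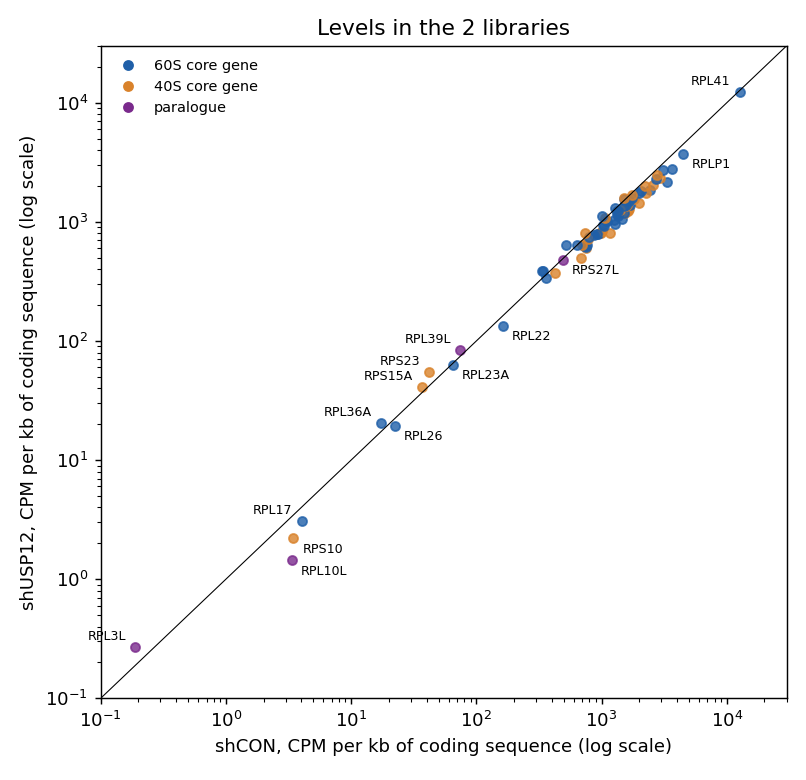
Level in shUSP12 against level in shCON for 80 of the 81 ribosomal protein genes, in CPM per kb of coding sequence on log axes, with 1 library per axis and the line of equal levels. Core genes form a dense cloud around medians of 1273 and 1074 CPM per kb, and the paralogues RPL10L and RPL3L lie at the lower left with a few core genes that share sequence with readthrough genes.

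The paralogues were present at a fraction of their core partners and showed no common direction. They share almost no 50-base coding words with other genes (at most 0.17%). These words were matched exactly and leave out the untranslated parts of a transcript. Misassignment of reads to the paralogues was not tested. RPS27L, at chr15:63125872-63158021 (-), is induced by p53 and replaces RPS27 in part of the ribosomes. It had 2177 counts in shCON and 2236 in shUSP12, a log2 ratio of -0.03 (-0.12 to 0.05) that was 0.10 under total-count scaling. RPS27 itself had 6739 and 7393 counts (0.06). RPS27L thereby made up 24.4% of the pair's counts in shCON (23.5 to 25.3) and 23.2% in shUSP12 (22.4 to 24.1). Parts of pairs, here and below, are parts of counts and are not corrected for length. The annotated transcript of RPS27L has 6110 bases and that of RPS27 has 352, and all coding words of RPS27 are shared with pseudogenes. The percentages therefore do not give each gene's part of the mRNA. Per kilobase of coding sequence RPS27L had the highest level of the paralogues, at 490 and 479 CPM per kb.

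RPL39L, at chr3:187120948-187180908 (-), is best known from testis and from some tumours. It had 203 and 239 counts (0.16, -0.11 to 0.44), while RPL39 had 4118 and 4445 (0.04, -0.02 to 0.10). Its part of the pair was 4.70% in shCON (4.09 to 5.37) and 5.10% in shUSP12 (4.49 to 5.77), and these intervals overlapped. RPL10L, an intronless testis copy at chr14:46651010-46651781 (-), had 38 and 17 counts, a ratio of -1.15 (-2.15 to -0.37). RPL10 had 8585 and 7573 (-0.25), and RPL10L made up 0.441% of the pair in shCON (0.312 to 0.604) and 0.224% in shUSP12 (0.131 to 0.358). At 38 counts or fewer this difference was the only one past 2-fold, and with a pseudocount of 1 CPM in place of 0.1 it was no longer so. RPL3L, the striated muscle form of RPL3 at chr16:1943974-1957606 (-), had 4 and 6 counts beside 35542 and 30989 for RPL3 (-0.27). It made up 0.0113% of the pair in shCON and 0.0194% in shUSP12, with overlapping intervals (0.0031 to 0.0288 and 0.0071 to 0.0421).

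A further 4 paralogues have symbols outside the rule. RPL36AL had 1354 counts in shCON and 1665 in shUSP12 (0.23), RPL7L1 5000 and 4808 (-0.13), RPL22L1 184 and 220 (0.19) and RPL26L1 786 and 830 (0.01). Only RPL36AL and RPL7L1 had intervals that left out 0, and these lay on opposite sides. Under total-count scaling the ratio of RPL7L1 was above 0. RPL7L1 made up 13.5% of its pair with RPL7 in shCON (13.2 to 13.9) and 15.9% in shUSP12 (15.5 to 16.3). RPL22L1, whose level is known to respond to loss of RPL22, made up 14.4% (12.5 to 16.4) and 18.8% (16.6 to 21.1) of its pair. RPL36AL held 93.3% of its pair in both, and RPL26L1 82.2% and 84.3%, but RPL36A, RPL26 and RPL22 are among the core genes listed low, so these 3 pairs are uncertain.

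Of the ribosomal proteins with other names, FAU, a fusion of a ubiquitin-like protein with a 40S protein, had 792 counts in shCON and 911 in shUSP12 (0.13, -0.01 to 0.27). RACK1, a scaffold on the 40S subunit, had 19282 and 18655 (-0.12, -0.15 to -0.09), which was 0.01 under total-count scaling.

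Within the core genes, the log2 ratio went with length and with level. In the 25 core genes with the shortest coding sequences (78 to 399 bases) the median ratio was -0.09, with 15 intervals below 0 and 4 above. In the middle 26 (408 to 567 bases) it was -0.19, and in the longest 26 (579 to 1284 bases) -0.26, with 25 below 0 and 1 above, which was RPL9. Across the 77 core genes Spearman's coefficient between coding length and ratio was -0.39, and Pearson's r was -0.34. Among core genes at 100 CPM or more Spearman's coefficient was also -0.39 (n = 68), and across 2025 other rows at that level it was -0.05. These are descriptions across genes of 1 pair of libraries, and genes are not independent replicates. By level, the lowest 25 core genes had a median of -0.07, the middle 26 one of -0.22 and the highest 26 one of -0.26. All 26 intervals of the last lay below 0, at means of 771 to 3082 CPM. Among the 323 other rows at 400 CPM or more, 75.5% of intervals lay below 0. Spearman's coefficient between mean CPM and ratio was -0.38 over the 77 core genes, -0.48 over the 68 at 100 CPM or more and -0.20 over 2045 other rows at that level. Whether either measure goes with the ratio apart from the other was not tested. Among other rows at 100 CPM or more, the 155 with coding sequences under 500 bases had a median of -0.02 and the 1870 longer ones -0.12. Intervals lay below 0 for 43.9% of the shorter and 57.2% of the longer rows, and above 0 for 31% and 22.5%.

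**Figure D4:**
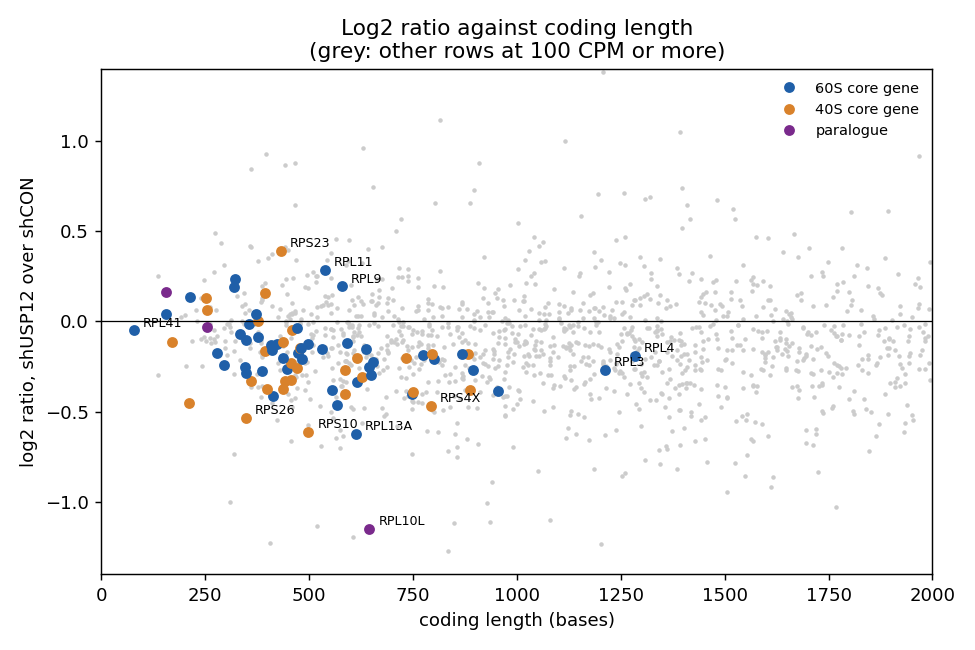
Log2 ratio of shUSP12 over shCON against coding length in bases for 79 of the 80 ribosomal protein genes with a mean of at least 1 CPM, with other rows at 100 CPM or more in grey. Rows outside the plotted ranges are not drawn. The longest 26 core genes have a median of -0.26 and the shortest 25 one of -0.09.

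The genes lie on 21 chromosomes. Chromosome 19 holds 12 of the core genes, and these had a median log2 ratio of -0.35, with 11 intervals below 0 and 1 above (RPL36). The 65 core genes elsewhere had a median of -0.18. The 131 other rows of chromosome 19 at 100 CPM or more had a median of -0.22. On its long arm, the 8 core genes, RPL13A and RPL18 included, had a median of -0.39, and the 89 other rows at 100 CPM or more a median of -0.25. The 4 core genes on the short arm had a median of -0.13 and the 42 other rows -0.16. Copy number was not measured, and its part in these values was not tested.

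Other genes of the pathway were taken from lists, which were not matched to the core genes by level. Elongation factors, which bring tRNAs to the ribosome and move it along the mRNA, had a median log2 ratio of -0.19 over 7 of 8 listed genes, with 5 intervals below 0 and 1 above. EIF5A, which relieves stalled ribosomes, was lowest, with 9148 counts in shCON and 7168 in shUSP12 (-0.42). EEF1A2, the muscle and neuronal form of EEF1A, was highest, with 1401 and 1922 (0.39). Initiation factors had a median of -0.05 over 29 genes (13 below, 9 above). The lowest was EIF2S3, a subunit of the factor that carries the initiator tRNA, with 11883 and 8670 counts (-0.52). The highest was EIF4G3, a scaffold of the cap-binding complex, with 710 and 1131 (0.60). Of 15 other TOP mRNAs, 14 passed 1 CPM and had a median of -0.13 (9 below, 1 above). EIF4B, a helper of the EIF4A helicase, was lowest at 13410 and 10457 counts (-0.43), and FAU was highest. The gene left out here was also the one left out of the elongation factors, with 0 counts in both libraries. The TOP list holds some of the elongation and initiation factors and the proteins with other names, and its median was 0.0017 under total-count scaling.

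Genes for the transcription and assembly of the ribosome's RNA gave medians nearer to 0 with TMM scaling, but these were 0.09 for RNA polymerase I, 0.11 for assembly factors and 0.12 for chaperones under total counts, where the ribosomal protein genes had -0.06. With TMM, the 14 rows of RNA polymerase I and its factors had a median of -0.05 (3 intervals below 0, 2 above). UBTF, which activates rDNA transcription, had 3845 counts in shCON and 2982 in shUSP12 (-0.44), and POLR1B, the second largest polymerase subunit, 1264 and 1738 (0.39). The 73 assembly factors had a median of -0.02 (26 below, 20 above), from FBL, the methyltransferase of box C/D snoRNPs, with 4773 and 3754 (-0.42), to NIP7, a 60S assembly factor, with 859 and 1397 (0.63). Dedicated chaperones of ribosomal proteins had a median of -0.01 over 6 genes, from GRWD1 (3486 and 3149 counts, -0.22) to PDCD2L (70 and 104 counts, 0.49). The 12 snoRNA host transcripts were further from 0 than the ribosomal protein genes. These transcripts, many of them TOP RNAs without a protein product, had a median of -0.32 (7 below, 2 above), from SNHG12 (385 and 243 counts, -0.73) to ZFAS1 (111 and 170 counts, 0.54).

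The list of the mTOR pathway and LARP1 was split, with a median of 0.25 over 15 genes (8 intervals above 0, 6 below). LARP1 itself, named after its values were seen, had 10937 counts in shCON and 10746 in shUSP12 (-0.10, -0.13 to -0.06). MLST8, a subunit of both mTOR complexes, had 1592 counts in shCON and 1187 in shUSP12 (-0.49). DEPTOR, an inhibitor of mTOR, had 17 and 36 (0.94, 0.14 to 1.94). The proteins of the mitochondrial ribosome are encoded by a separate set of nuclear genes. Their median was 0.07 over 79 genes, with 54 above 0, 20 intervals above 0 and 16 below. MRPL39 was lowest (509 and 414 counts, -0.37), and MRPL23 was highest, with 6 counts in shCON and 80 in shUSP12 (3.33, 2.48 to 5.16).

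**Figure D5:**
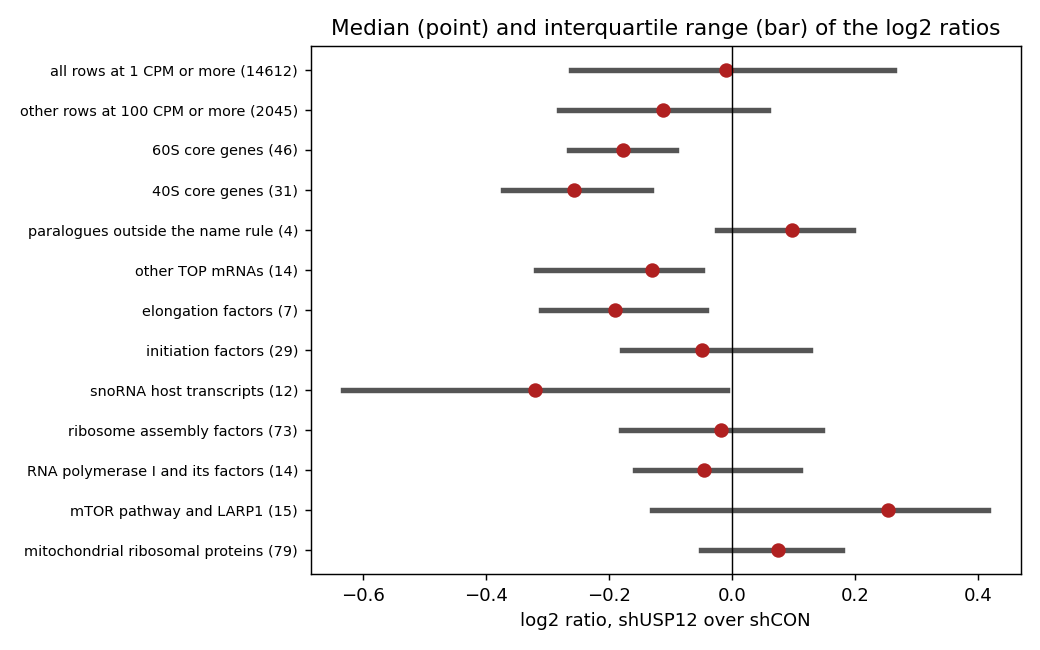
Median (point) and interquartile range (bar) of the log2 ratio of shUSP12 over shCON in each list, with the number of rows at 1 CPM or more in brackets. The 60S and 40S core genes have medians of -0.18 and -0.26, and other rows at 100 CPM or more one of -0.11. These groups are not matched by level, with median levels of 463, 524 and 172 CPM. At 400 CPM or more, core genes and other rows both have a median of -0.23. The mitochondrial ribosomal proteins, with a median level of 39.9 CPM, have a median of 0.07.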

How the data were processed

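Stranded mRNA libraries from H1944 cells were sequenced on an Illumina HiSeq instrument. According to the methods, the authors trimmed and filtered the reads with Seqtk, aligned them to GRCh38 with Hisat2 2.0.4 and counted uniquely mapped fragments per gene with StringTie, whereas the submitters' processing notes name Trimmomatic, HISAT2 2.0.4 and HTSeq 0.6.0. The annotation release is not given in the sources used here. The deposited values were whole-number counts per gene without normalisation. Lines without a count (91) were left out.

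Counts were scaled with TMM (edgeR 4.0.16; factors 0.955 for shCON and 1.05 for shUSP12). Log2 ratios are log2((shUSP12 CPM + 0.1) / (shCON CPM + 0.1)), and rows below a mean of 1 CPM were left out. Intervals are exact 95% binomial intervals (SciPy 1.17.1) and cover counting error only. They stand in for no replicate error. The scripts were tested on simulated data. Coding lengths and shared words came from GENCODE 44. Genes were named by rule: the paralogues and their partners, the 5 highest and lowest core genes by ratio and by level, genes with known roles, and the extremes of each list. The genes and lists were chosen with earlier results of these data known. A small number of genes are not reported here by name, and their values were left out of the lists or plots that would show them.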

Additional observations from a re-analysis of the deposited data

How the results depend on the processing

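No paired analysis was possible because a group consisted of 1 library. Of 162 summary values recomputed under the alternatives, 141 stayed within a set allowance, 20 moved and 1 reversed. The allowance was 1.5 times for numbers of genes and the counting interval for parts of counts. For the median of a list it was the typical counting error of a single gene in it, which is not the error of the median. Lists with low counts could therefore stay within it although their median changed sign. A sign change counts as reversed only if the value lay further from 0 than the allowance. Under total counts alone, the median log2 ratio of the ribosomal protein genes was -0.064 and 17 intervals lay above 0. The backgrounds above 0 were then 39.8% of rows at 1 CPM or more and 41.6% at 100 CPM or more. The medians of the lists were then 0.14 for ribosomal proteins with other names, 0.23 for paralogues outside the rule, -0.058 for elongation factors, 0.083 for initiation factors, 0.0017 for other TOP mRNAs (reversed), 0.11 for assembly factors, 0.09 for RNA polymerase I, 0.12 for chaperones, -0.19 for snoRNA hosts and 0.39 for the mTOR pathway. Those of initiation factors, assembly factors, RNA polymerase I and chaperones thus also changed sign. So did those of assembly factors (0.0048) and chaperones (0.015) with DESeq2 size factors and of ribosomal proteins with other names (-0.038) with upper quartile factors. With upper quartile factors the median of the ribosomal protein genes was -0.24. The number at least 2-fold lower was 0 with a pseudocount of 1 CPM, 0 when only genes with means of 5 CPM or more were kept, and 3 at a 1.5-fold threshold. Among the core genes with under 40% shared words, an alternative chosen after seeing the data, 0 were 2-fold lower, 4 intervals lay above 0 and 25 below. The genes' part of all counts was 5.67% and 5.199% without mitochondrially encoded rows, and 5.49% and 5.08% with pseudogene rows, in shCON and shUSP12. Of 189 values for 27 named genes, 153 stayed within the gene's own counting error, 34 moved and 2 reversed. The 2 were RPL23 under total counts (0.0051) and RPL9 with pseudogene rows (-0.11). Among genes whose interval included 0, RPS27L (0.10 under total counts) and RPL39 (-0.0047 with upper quartile factors) changed sign as well. Depth limited RPL3L, RPL10L, RPS10 and RPL17, with at most 39 counts per library. Replicates were not available for a left-out library.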
